A study of Mus musculus with 8 samples.

Results

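Retinoic acid is made from vitamin A inside tissues and acts on nearby cells by way of nuclear receptors. 9 genes of its synthesis, handling and response were read in the mesenchyme of the mouse small intestine: Rdh10, Dhrs3, Aldh1a1, Aldh1a2, Aldh1a3, Cyp26b1, Crabp1, Crabp2 and Rarb. They were taken by gene name from a deposited table of 46635 genes, and each matched 1 row. The libraries came from wild-type pups at postnatal day 14 (P14, 4 libraries) and from wild-type fetuses of stage E17.5 (4 libraries). The age label of the fetal samples reads day 17 and the treatment protocol reads E17.5, the stage used here. In both ages EDTA had been used to strip the epithelium, and total RNA was taken from what remained of the small intestine. Whether a library is 1 animal or a pool is not given, so p-values measure the spread between these libraries, which may be technical.

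Retinol is first oxidised to retinal, a step that RDH10 catalyses and that DHRS3 runs backwards. The ALDH1A enzymes then oxidise retinal to retinoic acid, CRABP proteins bind it in the cytoplasm, and CYP26 enzymes break it down. The acid binds retinoic acid receptors (RARs), which pair with retinoid X receptors (RXRs) on DNA and switch target genes. In the embryo the pathway takes part in patterning of the gut tube and in the growth of the enteric nervous system, and in the adult gut it guides immune cells to the intestine.

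Values are FPKM, which corrects reads for the length of the gene and a size of the library, and so levels may be compared between genes. The size used was not the assigned reads themselves. In P14 replicate 1 it was 0.78 of them, and in every other library it was slightly above them. A smaller size raises every value of a library, so P14 replicate 1 levels stand higher than assigned reads alone would give. Ratios of genes within a library are not changed by it. The libraries held 17702122 to 18474346 assigned reads at P14 and 16660998 to 19496632 at E17.5. P14 replicate 1 stood apart: its correlations with the rest of its age, across all tested genes, were 0.78 to 0.873, and those among replicates 2 to 4 were 0.956 to 0.974. The summed level of 11 epithelial markers was 4620 FPKM in it and 142, 706 and 259 FPKM in P14 replicates 2, 3 and 4, against 35.3 to 57.5 FPKM at E17.5. Its fibroblast markers summed to 553 FPKM, against 1513 to 1568 in the other P14 libraries, and those of E17.5 to 1593 to 1745. None of the markers of epithelium, fibroblasts, mesothelium, smooth muscle, neurons or glia was at 0 in any library. Epithelial markers passed this low bar too, so it does not measure how pure the mesenchyme was. As P14 replicate 1 stood apart, results are given with all libraries and again without it.

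4 of the 9 genes fell at P14 relative to E17.5 and none rose. Rdh10, Aldh1a3, Crabp1 and Crabp2 were lower at P14 by limma with Benjamini-Hochberg adjustment over 14044 genes (called under an adjusted p of 0.05). Among all tested genes, 15.0% were called lower and 9.72% higher, so that 39.3% of calls were higher; after rescaling to TPM, which fixes the sum of each library, 25.1% of calls were. Without P14 replicate 1, Rarb and Cyp26b1 also fell, making 6 of 9 lower and none higher, beside 26.9% lower and 22.6% higher among all genes. Aldh1a1, Aldh1a2 and Dhrs3 did not pass in either fit. In 6 of the 9 genes every P14 library lay below every E17.5 library, with and without P14 replicate 1; this held for 20.4% of all tested genes with it and 29.7% without it. All 9 entered the test, which took genes that reached 1 FPKM in 4 or more libraries, but Crabp1 and Crabp2 did so through the E17.5 libraries alone. Of the other 7 genes, 2 were called lower with all libraries and 4 without P14 replicate 1. In bulk tissue, fewer cells of a type and less RNA per cell cannot be told apart.

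**Figure D1:**
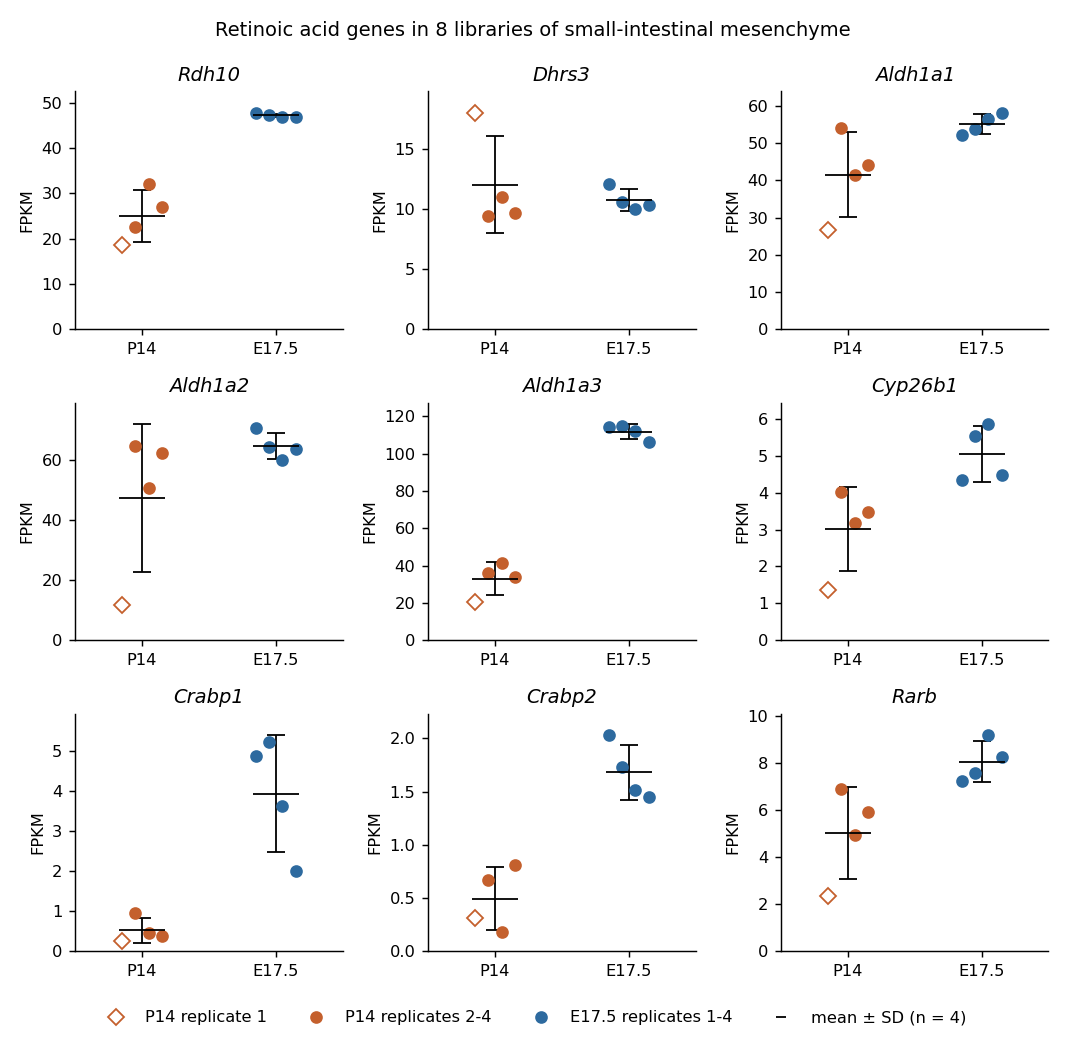
FPKM (vertical axis, from 0) of each gene in the P14 libraries and the E17.5 libraries, with the mean and SD of the 4 libraries of an age; the open diamond is P14 replicate 1. Rdh10, Aldh1a3, Cyp26b1, Crabp1, Crabp2 and Rarb do not overlap between the ages, and the diamond is the lowest of all 8 points in 7 of the 9 panels. How often P14 replicate 1 was the lowest among all tested genes was not counted.

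Rdh10 (gene 98711, chromosome 1, 16176106 to 16202774, plus strand, GRCm39) encodes the main retinol dehydrogenase of the embryo. P14 replicates 1 to 4 held 18.6, 22.5, 32.1 and 27.0 FPKM, against 47.8, 47.4, 47.0 and 46.9 FPKM in E17.5 replicates 1 to 4. The fetal libraries were almost equal and each was above every P14 library. The mean was 25.0 ± 5.79 FPKM at P14 and 47.3 ± 0.381 FPKM at E17.5 (SD, n = 4 each). The log2 fold change, P14 over E17.5 on the log2(FPKM + 1) scale, was -0.92 (SE 0.16, adjusted p = 0.00625), and -0.79 without P14 replicate 1 (SE 0.109, adjusted p = 0.000642).

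Dhrs3 (gene 20148, chromosome 4, 144618712 to 144654779, plus strand) encodes the reductase that returns retinal to retinol. It held 18.0, 9.45, 11.0 and 9.66 FPKM in P14 replicates 1 to 4, against 12.1, 10.6, 9.98 and 10.3 FPKM at E17.5. P14 replicate 1 was the highest of all 8 libraries and the rest of the ages overlapped. Its log2 fold change stood at 0.11 (SE 0.195, adjusted p = 0.71) with all libraries and -0.09 (SE 0.0905, adjusted p = 0.45) without P14 replicate 1. The sign also turned after rescaling to TPM (-0.08), which moved the median change of all tested genes to -0.18. Relative to the median of its own fit, Dhrs3 stood at 0.11 with and without this rescaling. Dhrs3 lies inside the span of Vps13d, on the other strand. Vps13d averaged 5.05 FPKM at P14 and 4.0 FPKM at E17.5, and whether counting used strand is not known from the labels, so reads of the pair may be shared.

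The forward and backward steps can be set side by side within a library, where the scaling of libraries drops out. Rdh10 over Dhrs3 was 1.04, 2.38, 2.91 and 2.79 in P14 replicates 1 to 4 and 3.94, 4.47, 4.71 and 4.57 in E17.5 replicates 1 to 4. The ages did not overlap in this ratio, which is given as a description.

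Aldh1a3 (gene 56847, chromosome 7, 66040640 to 66077225, minus strand) was the most abundant of the 9 genes in the fetus. P14 replicates 1 to 4 held 20.6, 35.8, 41.5 and 34.1 FPKM, against 114, 115, 112 and 106 FPKM at E17.5. The fetal libraries lay close together, all far above the highest P14 library. The mean was 33.0 ± 8.83 FPKM at P14 and 112 ± 4.0 FPKM at E17.5, a ratio of 0.296, or 0.332 without P14 replicate 1. The log2 fold change of -1.77 (SE 0.199, adjusted p = 0.00135) was the largest of the 9 on this scale with all libraries. It was -1.57 without P14 replicate 1 (SE 0.0837, adjusted p = 8.64e-06), where Crabp1 was at -1.58.

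Aldh1a2 (gene 19378, chromosome 9, 71123071 to 71203525, plus strand) encodes RALDH2, the enzyme that makes most of the early embryo's retinoic acid. It held 11.7, 64.7, 50.9 and 62.5 FPKM in P14 replicates 1 to 4, against 70.7, 64.3, 60.0 and 63.8 FPKM at E17.5. P14 replicates 2 and 4 lay within the fetal range, and P14 replicate 1 was far below every other library. Aldh1a2 had a log2 fold change of -0.69 (SE 0.495, adjusted p = 0.337) with all libraries and -0.13 (SE 0.101, adjusted p = 0.324) without that library, so its size rested on P14 replicate 1.

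Aldh1a1 (gene 11668, chromosome 19, 20469947 to 20620827, plus strand), which encodes RALDH1, held 26.6, 54.0, 41.5 and 44.1 FPKM in P14 replicates 1 to 4, against 52.3, 53.8, 56.6 and 58.1 FPKM at E17.5. P14 replicate 2 reached the fetal range and the other P14 libraries were below it. Aldh1a1 had a log2 fold change of -0.44 (SE 0.199, adjusted p = 0.139), and -0.25 (SE 0.0985, adjusted p = 0.0651) without P14 replicate 1. With that library left out it passed after TPM rescaling (-0.32, adjusted p = 0.0195) and with limma-voom on recovered reads (-0.24, adjusted p = 0.0457).

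The order of the ALDH1A genes differed between the ages. At E17.5 the order was Aldh1a3, Aldh1a2, Aldh1a1 in means, and no neighbouring pair overlapped. At P14 it was Aldh1a2 (47.5 ± 24.6 FPKM), Aldh1a1 (41.6 ± 11.3) and Aldh1a3 (33.0 ± 8.83), and every neighbouring pair overlapped. Within libraries, Aldh1a2 was above Aldh1a1 in 3 of the 4 P14 libraries, and Aldh1a1 above Aldh1a3 in 3. The summed level of the 3 genes was 58.9, 154, 134 and 141 FPKM in P14 replicates 1 to 4, against 237, 233, 229 and 228 FPKM at E17.5. Of that sum Aldh1a3 made up 23.1% to 35.0% at P14 and 46.5% to 49.3% at E17.5. The Aldh1a1 share was 31.0% to 45.1% at P14 and 22.1% to 25.5% at E17.5. Aldh1a2 made up 38.0% to 44.4% in P14 replicates 2 to 4 and 19.9% in replicate 1, against 26.2% to 29.8% at E17.5. Shares add to a whole, so a lower share of Aldh1a3 raises the others by itself.

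**Figure D2:**
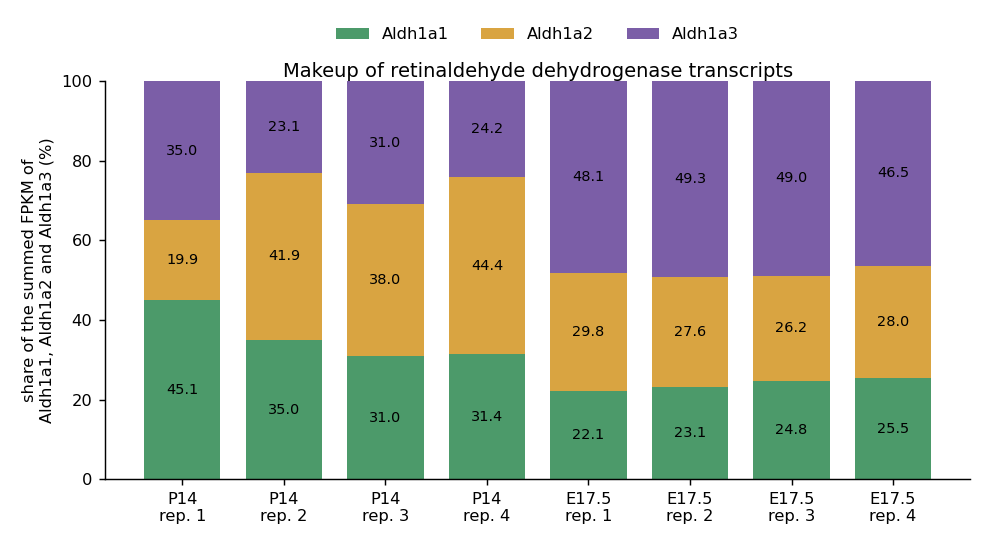
Share of each ALDH1A gene in the summed FPKM of Aldh1a1, Aldh1a2 and Aldh1a3 (vertical axis, percent), 1 bar per library, P14 libraries left of E17.5 libraries. Aldh1a3 takes 46.5% to 49.3% of every fetal bar and at most 35.0% of a P14 bar.

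Cyp26b1 (gene 232174, chromosome 6, 84548396 to 84570890, minus strand) encodes an enzyme that degrades retinoic acid. P14 replicates 1 to 4 held 1.37, 4.02, 3.19 and 3.49 FPKM, against 4.34, 5.54, 5.86 and 4.47 FPKM at E17.5. Every P14 library was below every fetal one, by a narrow gap for replicate 2. P14 over E17.5, the change was -0.64 in log2 (SE 0.239, adjusted p = 0.0866), and -0.40 (SE 0.12, adjusted p = 0.0227) without P14 replicate 1. Set against the ALDH1A sum of the same library, Cyp26b1 stood at 2.32% to 2.61% at P14 and 1.83% to 2.57% at E17.5, ranges that overlapped. The other CYP26 genes, Cyp26a1 and Cyp26c1, were below 1 FPKM in every library and were not tested.

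Crabp1 (gene 12903, chromosome 9, 54672032 to 54680394, plus strand) and Crabp2 (gene 12904, chromosome 3, 87856000 to 87860679, plus strand) encode the cytoplasmic binding proteins; CRABP2 carries retinoic acid to the receptors. Crabp1 held 0.267, 0.957, 0.466 and 0.391 FPKM in P14 replicates 1 to 4, against 4.87, 5.24, 3.62 and 2.0 FPKM at E17.5. Crabp2 held 0.317, 0.67, 0.178 and 0.813 FPKM at P14, against 2.03, 1.73, 1.52 and 1.45 FPKM at E17.5. Neither gene overlapped between the ages, and both were low throughout. The P14 values rest on 3 to 14 reads per library for each gene, against 32 to 75 reads of Crabp1 and 26 to 35 reads of Crabp2 at E17.5.

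On the log2(FPKM + 1) scale Crabp1 fell by 1.66 (SE 0.252, adjusted p = 0.004) and Crabp2 fell by 0.86 (SE 0.16, adjusted p = 0.00806). Without P14 replicate 1 the log2 fold changes were -1.58 for Crabp1 (SE 0.258, adjusted p = 0.00161) and -0.81 for Crabp2 (SE 0.167, adjusted p = 0.00458). The pseudocount of 1 shrinks the change of genes this low. With a pseudocount of 0.1 the log2 fold changes were -2.73 for Crabp1 and -1.73 for Crabp2, and limma-voom on the recovered reads gave -2.95 (adjusted p = 0.00889) and -1.96 (adjusted p = 0.0197). Crabp1 exceeded Crabp2 in all 4 fetal libraries and in 2 of the 4 P14 libraries.

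Rarb (gene 218772, chromosome 14, 5387365 to 6038924, plus strand, GRCm39) encodes RAR beta, a receptor whose own gene is a classical target of retinoic acid. Its promoter is shown because it is the textbook example of a promoter with a retinoic acid response element, a repeated hexamer that RAR and RXR bind together. The window, from RefSeq on GRCm38.p6, a build other than that of the table, is chr14:16575427-16575726 on the minus strand and runs from 250 bases before a transcript start to 50 after it; capitals mark the pair of hexamers:

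Rarb promoter: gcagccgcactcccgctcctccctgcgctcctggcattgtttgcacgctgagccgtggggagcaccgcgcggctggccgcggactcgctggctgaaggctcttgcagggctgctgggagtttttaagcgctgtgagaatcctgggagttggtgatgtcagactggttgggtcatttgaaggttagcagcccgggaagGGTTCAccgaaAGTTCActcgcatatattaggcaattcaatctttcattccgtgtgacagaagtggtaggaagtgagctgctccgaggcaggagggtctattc

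The pair, with capitals GGTTCA and AGTTCA in that order, is a direct repeat with a spacer of 5 bases (DR5) and lies 53 to 37 bases before the start. The hexamers were AGGTCA, its variant AGTTCA, its variant GGGTCA and its variant GGTTCA, searched on both strands with spacers of 1, 2 or 5 bases. A DR5 was found in 32 of 32851 RefSeq promoter windows (0.0974%), and any of the 3 repeats in 0.588%. Of the 9 genes, 6 had promoter entries, with 9 windows in all, and the Rarb window was the only one of those 9 with a repeat; Aldh1a3, Rdh10 and Crabp2 had no entry. The hexamers searched include both of those in this known element, so the Rarb match was fixed in advance and its rarity tests nothing. The match is a description of letters, and a count per gene does not tell transcripts of different starts apart.

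Rarb held 2.36, 6.88, 4.94 and 5.92 FPKM in P14 replicates 1 to 4, against 7.23, 7.56, 9.17 and 8.24 FPKM at E17.5. P14 replicate 1 was the lowest, and replicate 2 lay just under the lowest fetal library. Its log2 fold change was -0.65 (SE 0.254, adjusted p = 0.0971, not passing) with all libraries and -0.39 (SE 0.118, adjusted p = 0.0231) without P14 replicate 1. The mean without that library was 5.92 ± 0.969 FPKM at P14 (n = 3), against 8.05 ± 0.858 FPKM at E17.5 (n = 4).

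**Figure D3:**
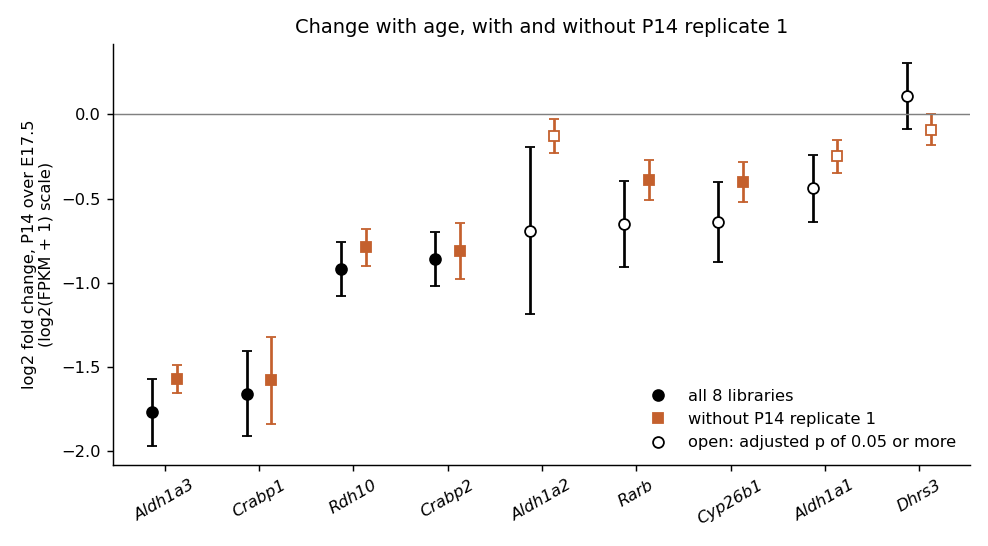
Log2 fold change of each gene, P14 over E17.5 (log2(FPKM + 1) scale, bars are the SE), for all 8 libraries (circles) and without P14 replicate 1 (squares); filled symbols have an adjusted p under 0.05. Aldh1a3, Crabp1, Rdh10 and Crabp2 are filled in both fits, Rarb and Cyp26b1 only as squares, and Aldh1a2 shifts the most when the library is left out.

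Over all 9 genes, the fetal order by mean level went on from the ALDH1A genes to Rdh10 (47.3 FPKM), Dhrs3 (10.7), Rarb (8.05), Cyp26b1 (5.05), Crabp1 (3.93) and Crabp2 (1.68). At P14 the same genes followed in the same order, with Rdh10 at 25.0, Dhrs3 at 12.0, Rarb at 5.03, Cyp26b1 at 3.02, Crabp1 at 0.52 and Crabp2 at 0.494 FPKM. These orders depend on the deposited gene lengths. Cyp26b1 is given as 12481 bases and Rarb as 3777, and at E17.5 Cyp26b1 held more reads (1040 to 1388, against 496 to 657). Neighbours whose ranges overlapped were Cyp26b1 with Crabp1 and Crabp1 with Crabp2 at E17.5. At P14 Aldh1a3 overlapped with Rdh10, Rarb with Cyp26b1 and Crabp1 with Crabp2. Read within libraries, Aldh1a3 was above Rdh10 and Rarb above Cyp26b1 in all 4 P14 libraries. Cyp26b1 was above Crabp1 in 3 of the 4 fetal ones.

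P14 replicate 1 held less of 8 of the 9 genes than the mean of the other P14 libraries. The ratio was 0.197 for Aldh1a2, 0.383 for Cyp26b1, 0.399 for Rarb, 0.441 for Crabp1, 0.556 for Aldh1a3, 0.571 for Aldh1a1, 0.572 for Crabp2 and 0.684 for Rdh10. For Dhrs3 it was 1.79. The share of all tested genes below 1 in this ratio was not counted. Scaled by assigned reads alone, each of these ratios would be lower, since the size used for P14 replicate 1 was smaller. Beside these, the median ratio over markers was 0.143 for mesothelium, 0.316 for smooth muscle, 0.329 for enteric neurons, 0.398 for fibroblasts and 14.4 for epithelium. Between these lay enteric glia (0.497), blood endothelium (0.52), macrophages (0.731), lymphatic endothelium (0.782), dendritic cells (1.07), exocrine pancreas (1.15) and adipocytes (2.1). The epithelial level ordered the P14 libraries as replicates 1, 3, 4 and 2 from high to low. Aldh1a1, Aldh1a2, Rarb and Cyp26b1 ran in exactly the opposite order, as did 16.2% of all tested genes, and Dhrs3 ran in the same order, as did 13.8%. The part of cell makeup in these values was not tested.

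**Figure D4:**
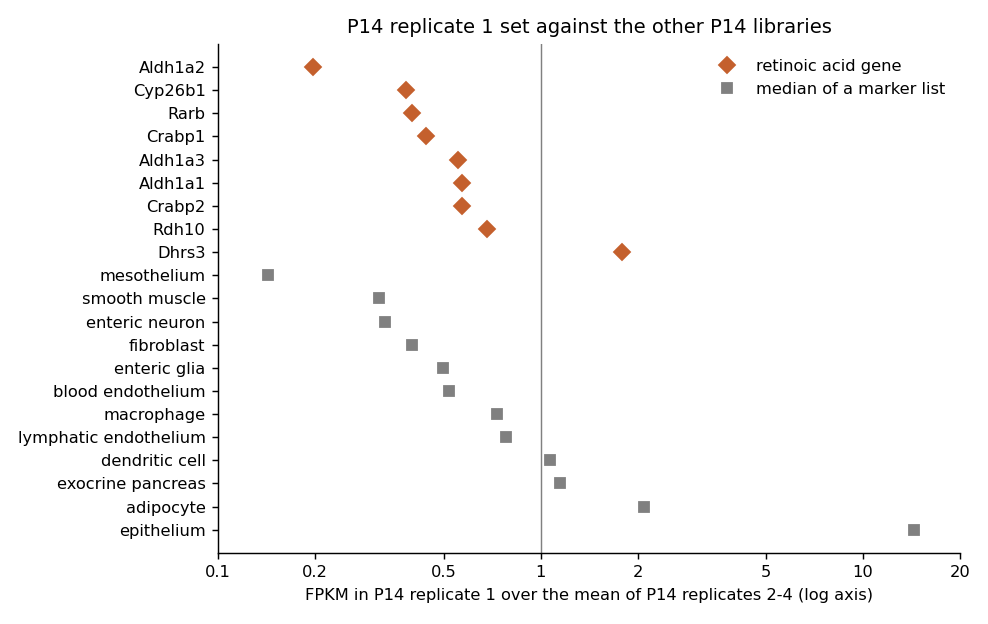
FPKM in P14 replicate 1 divided by the mean of P14 replicates 2 to 4 (horizontal log axis) for each of the 9 genes (diamonds) and, as a median, for each list of cell type markers (squares). 8 of the 9 genes lie below 1, between 0.197 and 0.684, and epithelial markers lie at 14.4. The share of all tested genes below 1 was not counted.

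Markers of other cell types also differed between the ages. Beside the calls below, 9.72% of all tested genes were higher and 15.0% lower with all libraries. Without P14 replicate 1 these shares were 22.6% and 26.9%. Of 10 tested epithelial markers 9 were called higher at P14 in both fits. All 4 blood endothelial markers were called lower, with sums of 104 to 221 FPKM at P14 and 354 to 384 FPKM at E17.5. The 3 lymphatic markers were lower too, with 19.7 to 31.4 FPKM at P14 and 75.0 to 86.9 FPKM at E17.5. Of 5 macrophage markers 3 were lower (101 to 167 FPKM at P14, 230 to 271 FPKM at E17.5). Of 5 dendritic cell markers 2 could be tested and both were lower; the 5 summed to 3.98 to 6.88 FPKM at P14 and 10.2 to 12.2 FPKM at E17.5. Smooth muscle, neuronal and glial markers gave 0, 0 and 2 higher calls with all libraries and 6, 4 and 5 without P14 replicate 1, and no lower call. Of 6 fibroblast markers 1 was lower and none higher with all libraries, and 1 was lower and 1 higher without P14 replicate 1. Mesothelial markers summed to 141 to 176 FPKM in P14 replicates 2 to 4 and 23.0 FPKM in replicate 1, against 65.4 to 115 FPKM at E17.5. Of 7 tested mesothelial markers 0 were called with all libraries, and 6 were called higher without P14 replicate 1. Adipocyte markers summed to 67.7, 2.18, 16.7 and 5.45 FPKM in P14 replicates 1 to 4, the order of the epithelial markers. At E17.5 they summed to at most 0.24 FPKM, and each of the 4 was at 0 in at least 1 library. Only 1 of the 4 was tested, and it was called higher in both fits. Lep was at 0 in at least 1 P14 library too. The part of these cells in the changes of the retinoic acid genes was not tested.

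The genes nearest in pattern were sought for Aldh1a3, Crabp1 and Rdh10, the 3 members with the largest changes on the log2(FPKM + 1) scale with all libraries, as the root-mean-square difference of log2(FPKM + 1) over the 8 libraries after centring each gene. Rdh10 holds that rank on this scale only narrowly, at -0.92 beside -0.86 for Crabp2, and Crabp2 changed more than Rdh10 with a pseudocount of 0.1, after TPM rescaling, by limma-voom and without P14 replicate 1. Nearest to Aldh1a3 were Thbd, the gene of thrombomodulin (distance 0.0733), Sema5b, a semaphorin (0.116), and Lrrc55 (0.123). Thbd averaged 21.7 FPKM at P14 and 70.8 FPKM at E17.5. Nearest to Crabp1 were Alas2, an enzyme of haem synthesis in red cells (0.198), Hpse2 (0.229) and Itga11, an integrin chain (0.258). Nearest to Rdh10 were Il1r1, an interleukin 1 receptor (0.104), the mitotic kinase Aurka (0.106) and the leptin receptor gene Lepr (0.106).

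Of 54 further genes of the retinoid pathway, 35 were tested, 5 were called higher at P14 and 6 lower. Of all tested genes 9.72% were higher and 15.0% lower, as given above. Without P14 replicate 1, 7 were higher and 13 lower, beside 22.6% higher and 26.9% lower of all tested genes. Ttr, among those higher, entered the test through the P14 libraries alone, since no E17.5 library reached 1 FPKM. The median log2 fold change was -0.31 with all libraries and -0.16 without P14 replicate 1, against 0.00 and -0.03 over all tested genes. Within the P14 libraries 15 of the 54 genes ran in the order of the epithelial markers (27.8%), Rbp2, Ttr, Lrat, Adh1, Dhrs4, Ncor1 and Rarres1 among them. In the opposite order ran 12 (22.2%), among them Fabp5, Rdh13, Rarg, Nr2f2 and Rarres2. Of all tested genes 13.8% ran in the same order and 16.2% in the opposite one. The 54 include 19 genes that were not tested, so these shares are not on equal terms. The part of epithelium in their values was not tested.

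**Figure D5:**
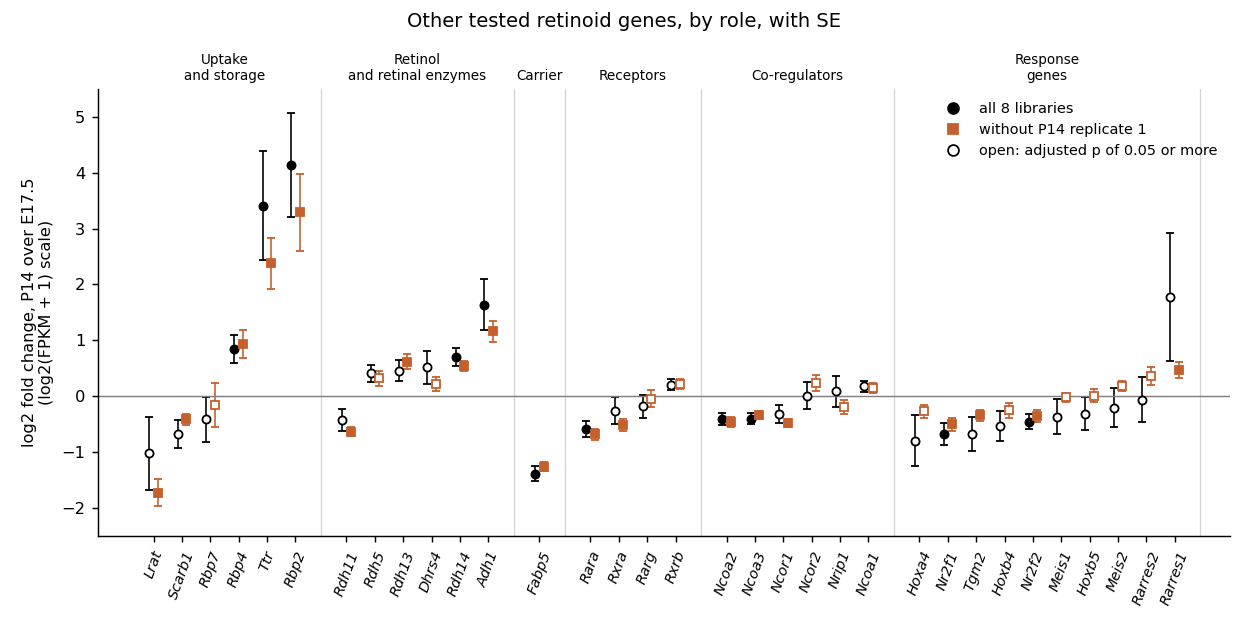
Log2 fold change, P14 over E17.5, with SE, of tested genes of the wider retinoid list grouped by role, 2 of the 35 not being shown, for all 8 libraries (circles) and without P14 replicate 1 (squares); filled symbols have an adjusted p under 0.05. Rbp2 and Ttr show the largest increases (4.14 and 3.41), and Fabp5 is the largest called decrease with all libraries (-1.38).

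Uptake and storage genes gave 3 increases and no decrease among 7 tested with all libraries, and 3 increases and 3 decreases without P14 replicate 1. Of all tested genes 9.72% rose and 15.0% fell with all libraries, and 22.6% rose and 26.9% fell without P14 replicate 1. Rbp2, the retinol-binding protein of enterocytes, held 514, 15.4, 118 and 56.6 FPKM in P14 replicates 1 to 4, against 7.6, 3.51, 2.35 and 3.59 FPKM at E17.5 (4.14, SE 0.932, adjusted p = 0.0167). Ttr, the plasma carrier transthyretin, was at 126, 2.37, 12.7 and 7.77 FPKM at P14 and at 0.12 to 0.791 FPKM at E17.5 (3.41, SE 0.969, adjusted p = 0.037). Both followed the order of the epithelial markers in the P14 libraries. Rbp4, the plasma retinol-binding protein, rose less, to 2.69 ± 0.48 FPKM at P14, against 1.12 ± 0.619 FPKM at E17.5 (0.85, adjusted p = 0.0423). The call of Rbp2 was lost without E17.5 replicate 3 or 4, with an adjusted p of 0.0556 without replicate 3 and one that rounds to 0.05 without replicate 4. Omitting P14 replicate 3 or 4, or a single fetal library, ended that of Ttr (0.0582 to 0.0983). That of Rbp4 held only when the omitted library was P14 replicate 1 or E17.5 replicate 3 (0.0592 to 0.103 for the other 6). Without P14 replicate 1, Lrat, which esterifies retinol for storage, fell by 1.72 in log2 (adjusted p = 0.000899) and Scarb1, a lipid and carotenoid uptake receptor, fell by 0.41 (adjusted p = 0.0108); both were named after their values were seen. Lrat held 13.3, 0.451, 1.95 and 1.03 FPKM in P14 replicates 1 to 4, against 7.74, 5.04, 5.96 and 4.75 FPKM at E17.5, so that P14 replicate 1 alone exceeded the fetal range.

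Among 6 tested retinol and retinal enzymes, Adh1 and Rdh14 rose and none fell with all libraries, beside 9.72% higher and 15.0% lower among all tested genes. When P14 replicate 1 was left out, 3 rose and 1 fell, beside 22.6% higher and 26.9% lower. Rdh13 was then also higher (0.62, adjusted p = 0.00561) and Rdh11 lower (-0.63, adjusted p = 0.000462), both retinol dehydrogenase family genes named after their values were seen. Adh1, an alcohol dehydrogenase, held 19.2, 3.41, 5.41 and 4.40 FPKM in P14 replicates 1 to 4, against 1.75, 1.81, 1.32 and 0.824 FPKM at E17.5 (1.64, SE 0.451, adjusted p = 0.0333), a call that ended when P14 replicate 3 or a single fetal library was omitted (0.0657 to 0.0934). Its P14 libraries ran in the order of their epithelial markers. Rdh14 averaged 18.7 ± 4.72 FPKM at P14 and 10.9 ± 1.09 FPKM at E17.5 (0.70, SE 0.165, adjusted p = 0.0194), a call lost without E17.5 replicate 2 or 3 (0.056 to 0.0645). Dhrs4, the highest of this role, was at 20.4 ± 10.7 FPKM at P14 and 12.8 ± 0.596 FPKM at E17.5 (adjusted p = 0.22).

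Fabp5, which carries retinoic acid as well as fatty acids, moved with the falling genes. P14 replicates 1 to 4 held 24.2, 36.6, 30.1 and 34.9 FPKM, against 82.0, 85.2, 81.5 and 80.7 FPKM at E17.5. The fetal libraries lay close together and far above every P14 library. Its log2 fold change was -1.38 (SE 0.137, adjusted p = 0.000837), and -1.26 (SE 0.0811, adjusted p = 1.89e-05) without P14 replicate 1.

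Of the 4 tested receptors, Rara fell and the other 3 did not pass, beside 15.0% lower among all tested genes. Without P14 replicate 1, 2 of the 4 fell, beside 26.9% of all tested genes. Rara, the gene of RAR alpha, held 12.0, 7.91, 9.12 and 9.47 FPKM in P14 replicates 1 to 4, against 16.2, 15.7, 14.9 and 12.5 FPKM at E17.5 (-0.58, SE 0.14, adjusted p = 0.0211). The call was lost without E17.5 replicates 1, 2 or 3 or P14 replicates 3 or 4, left out singly (0.0521 to 0.0644). Rarg was at 11.4 ± 2.59 FPKM at P14 and 13.1 ± 2.77 FPKM at E17.5 (adjusted p = 0.533). Rxra was at 23.7 ± 9.87 FPKM at P14 and 27.2 ± 2.57 FPKM at E17.5 (adjusted p = 0.453), and was called lower without P14 replicate 1 (-0.51, adjusted p = 0.00547). Rxrb was at 22.7 ± 1.2 FPKM at P14 and 19.6 ± 2.05 FPKM at E17.5 (adjusted p = 0.178). Rxrg stayed below 1 FPKM and was not tested.

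Of 6 co-regulators 2 fell with all libraries and 3 without P14 replicate 1, beside 15.0% and 26.9% of all tested genes. With all libraries the coactivator genes Ncoa2 and Ncoa3 fell by 0.41 (SE 0.104, adjusted p = 0.0246) and by 0.40 (SE 0.0975, adjusted p = 0.0215). Their calls were lost without any one of 6 libraries for Ncoa2, all but P14 replicate 1 and E17.5 replicate 1 (0.0578 to 0.0832), and without E17.5 replicates 1, 2 or 3 for Ncoa3 (0.0525 to 0.0755). The corepressor gene Ncor1, the highest of the role, was at 12.8 ± 3.25 FPKM at P14 and 15.9 ± 0.942 FPKM at E17.5 (adjusted p = 0.173), and was called lower without P14 replicate 1 (-0.47, adjusted p = 0.00102).

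Of 11 tested response genes 2 fell and none rose with all libraries, beside 15.0% lower among all tested genes. Leaving out P14 replicate 1, 3 fell and 1 rose, beside 26.9% lower and 22.6% higher among all tested genes. Tgm2, a transglutaminase gene, was then also lower (-0.34, adjusted p = 0.0165) and Rarres1 higher (0.47, adjusted p = 0.025), both named after their values were seen. Rarres1 held 165, 2.95, 3.9 and 3.18 FPKM in P14 replicates 1 to 4, against 1.47 to 2.46 FPKM at E17.5. With all libraries its log2 fold change was 1.78 (SE 1.14, adjusted p = 0.281). Those that fell with all libraries were Nr2f1 and Nr2f2, the COUP-TF genes, which encode orphan nuclear receptors. Nr2f1 held 1.02, 2.41, 2.33 and 2.28 FPKM in P14 replicates 1 to 4, against 4.68, 3.27, 3.42 and 3.64 FPKM at E17.5 (-0.68, SE 0.196, adjusted p = 0.0385). Nr2f2 averaged 11.2 ± 2.07 FPKM at P14 and 15.5 ± 1.39 FPKM at E17.5 (-0.45, SE 0.139, adjusted p = 0.0479). Both calls ended when P14 replicate 3, P14 replicate 4 or a single fetal library was omitted (0.0618 to 0.096 for Nr2f1, 0.0935 to 0.125 for Nr2f2). Rarres2, the gene of chemerin and the highest of the role, was at 114 ± 48.8 FPKM at P14 and 108 ± 23.7 FPKM at E17.5 (adjusted p = 0.926), with a log2 fold change of -0.06 although its P14 mean was higher, and of 0.36 without P14 replicate 1 (adjusted p = 0.0981).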

How the data were processed

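8 RNA-seq libraries of small-intestinal mesenchyme were compared, grouped by their titles. The deposited table gives FPKM per gene and library, scaled by the authors. Per the submitters' processing notes, CASAVA, fastp, HISAT2, featureCounts and DESeq2 1.20.0 were used with GRCm39; no roles are listed, and which of them made the FPKM is unknown here. FPKM times gene length gave whole multiples of 1 step in 100% of values (tolerance 1e-06), taken as recovered reads. The depth behind the values is given in the opening. Scaling size over assigned reads was 0.78 for P14 replicate 1 and 1.02 to 1.06 for the rest.

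Genes that reached 1 FPKM in 4 or more of the 8 libraries were fitted as log2(FPKM + 1) in limma 3.58.1 (R 4.3.3; intensity trend, robust, two-sided), and p-values were adjusted over all of them. Alternatives were a pseudocount of 0.1, no filter, TPM and median-of-ratios scaling, no trend, limma-voom on reads, a replicate block and the omission of each library. The code was tested on simulated reads with planted changes. No simulated library stood apart as P14 replicate 1 does, so that case was not covered. The text names all members, all receptors and, per role, up to 3 called genes of the largest change and the highest gene. All list symbols matched by name; 2 genes of the wider list are counted but not reported here singly. Members and lists were chosen with earlier results of these data known. Chromosomes are the table's, on GRCm39, and promoters are RefSeq's, on GRCm38.p6.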

Additional observations from a re-analysis of the deposited data

Results flagged for a closer look

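In 6 of 52 groups of 4 libraries looked at, 1 library lay far from the other 3. Genes named only after their values were seen were not among these groups. For independent groups chance gives about 1 group in 20, but these groups share their libraries. None of the 6 was in the 9 genes of the opening list. P14 replicate 1 was the lowest of all 8 libraries for 7 of those 9 and the highest for Dhrs3. How often it was the lowest or the highest among all tested genes was not counted. P14 replicate 1 was the outlying library in 5 of the 6 groups. It held 126 FPKM of Ttr, against 2.37 to 12.7 in the other P14 libraries, and 19.2 FPKM of Adh1, against 3.41 to 5.41. It held 25.7 FPKM of Rdh14, against 15.8 to 17.3, and 17.6 FPKM of Ncor1, against 10.9 to 11.5. Nr2f1 was at 1.02 FPKM in it, against 2.28 to 2.41. In the fetal group, E17.5 replicate 3 held 0.203 FPKM of Rbp4, against 1.37 to 1.55 in the other E17.5 libraries. Among the genes left out of these groups, P14 replicate 1 held 165 FPKM of Rarres1, against 2.95 to 3.9 in the other P14 libraries. It held 13.3 FPKM of Lrat, against 0.451 to 1.95, and 15.8 FPKM of Rdh11, against 7.87 to 8.99. Tgm2 was at 23.4 FPKM in it, against 56.6 to 62.7. It lay less far apart for Rdh13 and Scarb1.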

How the results depend on the processing

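Aldh1a3, Rdh10, Crabp1 and Crabp2 were called lower in each of 18 alternatives, with log2 fold changes of -1.98 to -1.57, -1.13 to -0.79, -2.95 to -1.53 and -1.96 to -0.75. Median-of-ratios scaling, which makes 2 of the 18, left the values as they were to the digits given, and so tested nothing. Rarb and Cyp26b1 were called in the 4 that left out P14 replicate 1 and in no other, Aldh1a1 in 2 of those 4, and Aldh1a2 and Dhrs3 in none. Members called lower numbered 4 to 6 over the omissions of 1 library, and 7 without P14 replicate 1 after TPM rescaling or by limma-voom. Combining that omission with another scaling was chosen after seeing the data. Omitting 1 library gave -0.09 to 0.20 for Dhrs3 and -0.23 to 0.36 for Rarres2. Dhrs3 turned to -0.08 after TPM rescaling, to -0.09 without P14 replicate 1, and, with that library out, to -0.16 by TPM, -0.09 by median-of-ratios scaling and -0.08 by limma-voom. Rarres2 turned to 0.36 without P14 replicate 1, to 0.06 without E17.5 replicate 2, and, with P14 replicate 1 out, to 0.30, 0.36 and 0.39 under the same settings. Relative to the median change of all tested genes, Dhrs3 with all libraries stood at 0.11 both on FPKM and after TPM rescaling. Without P14 replicate 1 it stood at -0.06 on FPKM and at -0.07 after TPM rescaling.

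In the wider list, genes called higher numbered 1 to 7 and lower 1 to 13 over omissions of 1 library, against 5 and 6 in all. With no filter they numbered 3 and 3, by limma-voom 2 higher and 5 lower, and with the replicate block 1 and 1. Without P14 replicate 1 the lower ones numbered 14 by TPM, 13 by median-of-ratios scaling and 13 by limma-voom. The cause was not tested. Same-numbered libraries deviated from their age means with correlations of -0.0641 to 0.00947, so the numbers were not taken as pairs; under the replicate block the 4 members kept their calls.

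Over all tested genes, 1365 were higher and 2108 lower, against 3176 and 3782 without P14 replicate 1 and 695 and 1049 with the replicate block. TPM rescaling gave 899 and 2678, and its median log2 fold change over all tested genes was -0.18; relative to that shift Aldh1a3 stood at -1.80, Rdh10 at -0.94, Crabp1 at -2.20 and Crabp2 at -1.25. By limma-voom, Rbp2, Ttr, Rbp4, Ncoa3, Nr2f1 and Nr2f2 were not called. At P14, Crabp1 and Crabp2 are limited by 3 to 14 reads per library.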
